A study of Arabidopsis thaliana with 4 samples.

Results

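The serine carboxypeptidase-like genes of Arabidopsis thaliana were followed in rosette leaves of wild-type plants (Col-0) and of KO-nudx19 plants, the mutant, which lack the NADPH-cleaving enzyme nudix hydrolase 19. Members were all probe sets that name exactly 1 gene with a symbol of the form scpl or SCPL and a number. This rule found 29 of 22810 probe sets, each for a different gene. RefSeq (TAIR10.1) names 51 genes of the family, by symbol or synonym. Of the others, 3 (scpl36, scpl37 and scpl39) lie only on 2 probe sets that name several genes, and 19 without a named probe set were not analysed here. Each genotype was measured on 2 Affymetrix ATH1 arrays, numbered 1 and 2 in the labels, which makes 4 arrays. All plants were 3 weeks old, with 1 week on medium with sucrose and 2 weeks on soil under 16 h of light. The labels give for both groups neither how many plants made up a sample nor whether the samples were grown apart, so p-values measure the spread between arrays, which may be technical. The transcript of the deleted gene was not analysed here, which leaves the KO-nudx19 label unchecked.

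Serine carboxypeptidases are secreted or vacuolar enzymes that use a serine, an aspartate and a histidine to cut the last residue off a peptide. In plants the family has expanded, and some members have become acyltransferases that take their acyl group from glucose esters. The best known is SNG1 (SCPL8), which makes sinapoylmalate, a sunscreen of Arabidopsis leaves, and SCPL19 (SNG2) makes sinapoylcholine in seeds. BRS1 (SCPL24) is known for its link to brassinosteroid signalling. None of these 3 genes is among the 29 members. Only 2 members, scpl16 and scpl18, carry a number from 1 to 19, the stretch that holds SCPL8 and SCPL19 and in which RefSeq has 19 genes. The other 27 carry numbers from 20 to 50. SCPL49 is annotated as carboxypeptidase Y, a name taken from the vacuolar carboxypeptidase of yeast. RefSeq gives the remaining members no name beyond serine carboxypeptidase-like and a number, so no role is stated for them.

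The values are deposited signals, in linear intensity units, and detection calls were not used here. A member was counted as having leaf signal when its mean over the 4 arrays reached 38.2, the 40th percentile of all probe sets other than controls. Of the 29 members, 14 did (48.3%), against 60% of all 22746 probe sets. All 14 lay above that value on every array, between 80.5 and 968. They were scpl20, scpl25, scpl26, SCPL27, scpl29, scpl31, SCPL34, scpl35, scpl42, SCPL45, scpl46, scpl48, SCPL49 and scpl50. The remaining 15 lay below it on every array, between 0.647 and 35.1. They were scpl16, scpl18, scpl21, scpl22, scpl23, scpl28, scpl30, SCPL32, scpl33, scpl38, scpl40, scpl41, SCPL43, scpl44 and scpl47. No member had a mean close to the threshold, since the lowest mean inside it was 97.7 (scpl31) and the highest outside it 26.4 (SCPL43). SCPL43 reached 35.1 on wild type replicate 2. Both members numbered 1 to 19 were in the dim set. Signals of different probe sets depend on their probes and do not rank the genes by abundance.

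**Figure D1:**
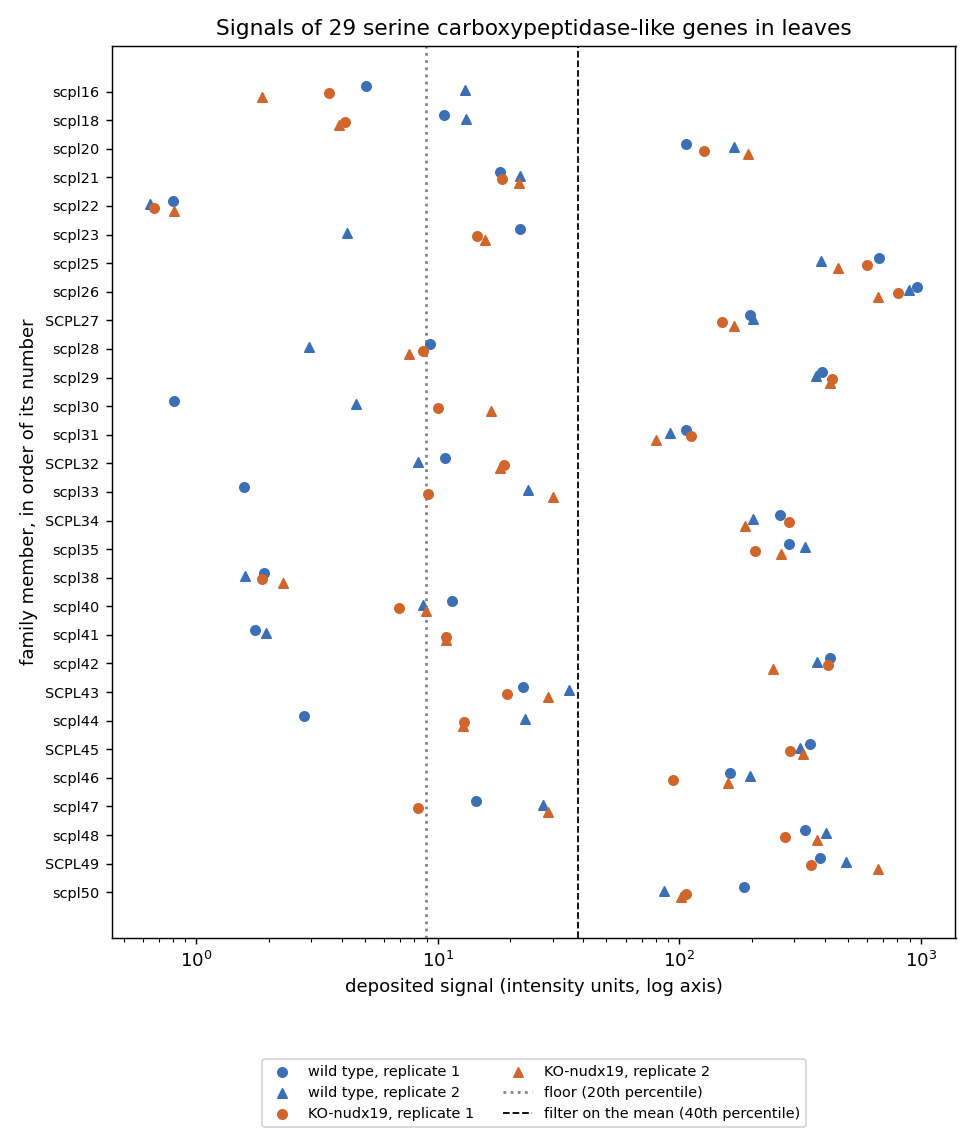
Deposited signal (intensity units, log axis) of each of the 29 members, in order of their number, on the 4 arrays, with colour for the genotype and shape for the replicate number. The dashed line is the mean needed for testing (38.2) and the dotted line the floor (8.92). In 14 members all points lie to the right of the dashed line, from 80.5 to 968, and in the other 15 all lie to the left of it, at 35.1 or below.

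Among the 15 dim members, scpl22 and scpl38 were below 8.92, the 20th percentile of all values, on all 4 arrays. Their signals ran from 0.647 to 0.806 and from 1.60 to 2.28. Only scpl21 and SCPL43 were above that floor on every array, and the other 11 crossed it. Signals below the floor have no order, so no fold change is given for these members. With all values under the floor set to it, 3 of the 15 (20%) were higher on both KO-nudx19 arrays, against 7.58% of all 9098 untested probe sets, and 1 (6.67%) was lower, against 6.22%. On both arrays numbered 2, 4 were higher (26.7%, against 20.3%) and 0 lower (against 6.56%). None of these differences was tested. Neighbouring genes of the family could lie on both sides of the threshold: scpl26 and scpl28 stand next to each other on chromosome 2, and scpl26 was above it and scpl28 below it on all 4 arrays. The neighbours scpl22 and scpl23, also on chromosome 2, were both below it.

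The leaf origin was checked with 6 marker genes, of which 2 had a named probe set. Wild-type signals of RCA (Rubisco activase) were 11113 and 13711, against 14928 and 19541 in KO-nudx19. For LHCB4.2, which encodes an antenna protein, they were 9511 and 12462 against 12726 and 16206. Both were bright on all arrays and higher on both KO-nudx19 arrays, as were 10.5% of all tested probe sets. Their log2 differences were 0.47 and 0.40 (limma adjusted p = 1.00 for each). Markers of seed, flower and root, for which no probe set was named, were not analysed here. Every array had a trimmed mean signal of 200. In whole leaves, fewer cells of a type and less RNA per cell cannot be told apart.

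The main comparison asked whether family members differ between KO-nudx19 and wild type. None of the 14 tested members passed limma's test, and the estimates ran from −0.54 (scpl46) to 0.22 (scpl20) on the log2 scale. Of 13648 probe sets tested, limma called 0 at an adjusted p of 0.05 (0%), and 89 (0.652%) had an unadjusted p under 0.05, none of them a member, in this fit without the replicate number. Without wild type replicate 1, 10 probe sets passed, again with no member among them. In the fit on all 4 arrays without the number, the adjusted p was 1.00 for every member. When nothing differs, a threshold of 0.05 lets through a larger share than 0.652%, so the p-values of this fit ran high. Differences between the numbers stayed in its error term. Once the number was added to the genotype fit, 738 of the 13648 probe sets had an unadjusted p under 0.05. This is close to the share that such a threshold lets through when nothing differs. Among the 738 was 1 of the 14 members. That member was scpl46 (limma adjusted p = 0.879 in that fit). The lack of calls without the number is thus weak evidence that members do not differ. In 9 members the estimate was below 0 and in 5 above, with a median of −0.16, against −0.00029 over all tested probe sets, of which 50% were below 0. The smallest two-sided p that an exact test of one member allows with 2 arrays per genotype is 0.333.

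In 5 of the 14 members (35.7%) the arrays of both genotypes did not overlap, against 22.3% of all tested probe sets. Of these, 4 were lower in KO-nudx19 (28.6%, against 11.8% of all) and 1 was higher (7.14%, against 10.5%). The count was 4 of 14 after quantile normalization, which drops scpl46, against 22.5% of all tested probe sets. It was 6 of 14 after centring on the median, which adds SCPL45, against 22.4%. Lower in KO-nudx19 were 3 members after quantile normalization (against 12.9% of all) and 5 after centring (against 14.5%).

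The 4 members with lower signals on both KO-nudx19 arrays were scpl26, SCPL27, scpl35 and scpl46. For scpl26 the signals were 968 and 892 on the wild-type arrays against 807 and 665 on the mutant arrays (replicates 1 and 2, in this order throughout), and the log2 difference was −0.34 (SE 0.24). SCPL27 had 197 and 201 on the wild-type arrays against 150 and 168 on the mutant arrays, and the log2 difference was −0.33 (SE 0.25). Its wild-type arrays were close together, and the nearest values of the genotypes lay 1.17-fold apart, the widest gap of the 5. For scpl35 the signals were 286 and 331 on the wild-type arrays against 207 and 263 on the mutant arrays, and the log2 difference was −0.40 (SE 0.26). In both genotypes its replicate 2 array was the higher one, and the gap between the genotypes was 1.09-fold.

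The member with the largest estimate, scpl46, had 163 and 196 on the wild-type arrays against 94.6 and 160 on the mutant arrays, and the log2 difference was −0.54 (SE 0.34). Its gap was only 1.02-fold, between wild type replicate 1 and KO-nudx19 replicate 2. The estimate was −0.30 within the arrays numbered 2 and −0.78 within those numbered 1, and leaving out KO-nudx19 replicate 1 gave −0.16 and leaving out its replicate 2 gave −0.92. The value of scpl46 thus depended on which KO-nudx19 array was used.

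The member with higher signals on both KO-nudx19 arrays was scpl29, with 389 and 370 on the wild-type arrays against 429 and 420 on the mutant arrays. Its log2 difference was 0.16 (SE 0.23), and it was the steadiest of the 14, with 1.16-fold between its highest and lowest array. Across the family that ratio had a median of 1.56, against 1.53 over all tested probe sets, and reached 2.14 in scpl50.

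Within the replicate numbers, 6 members were lower in KO-nudx19 both times (42.9%, against 24.8% of all tested probe sets), 2 were higher both times and 6 changed sign. Shares over all tested probe sets were not counted for those higher both times or changing sign. Lower both times were scpl26, SCPL27, scpl35, scpl42, scpl46 and scpl48. In scpl42 the difference was −0.025 for number 1 and −0.60 for number 2. Its KO-nudx19 replicate 2, at 245, lay below the other 3 arrays, which were at 421 and 372 for wild type and 414 for KO-nudx19 replicate 1. For scpl48 the signals were 331 and 406 on the wild-type arrays against 273 and 373 on the mutant arrays, with differences of −0.28 and −0.12. The member higher both times beside scpl29 was scpl20, with 0.25 and 0.19, although its genotypes overlapped. The median over the 14 members was −0.21 within number 1 and −0.12 within number 2.

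**Figure D2:**
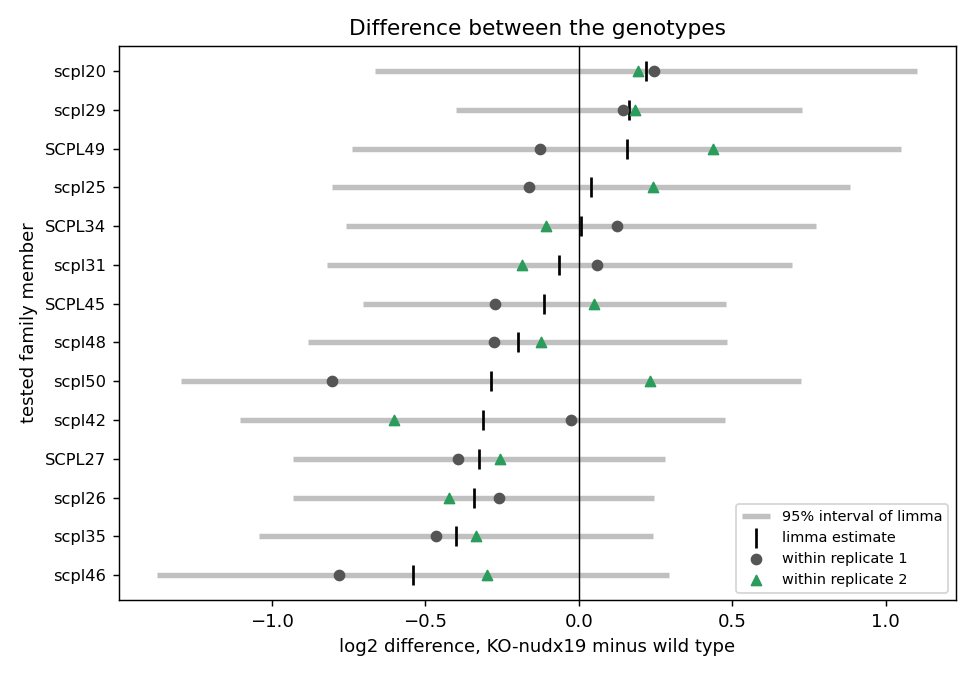
Log2 difference of the genotypes, KO-nudx19 minus wild type, in each of 14 tested members, with limma's estimate (black bar), its 95% interval (grey) and the difference within each replicate number (points). In this fit, which leaves the replicate number out, all 14 intervals include 0, and the estimates run from −0.54 for scpl46 to 0.22 for scpl20.

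The adjusted test could have missed larger differences than the intervals of the fit without the replicate number show. These intervals hold for 1 member at a time and are not adjusted over the tested probe sets. Their median half-width was 0.76 on the log2 scale, that is 1.70-fold. The lowest bound of any member was −1.37 (scpl46, 2.59-fold) and the highest 1.10 (scpl20, 2.15-fold).

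The second comparison set the arrays numbered 2 against those numbered 1, with genotype as a term in the fit. The estimates ran from −0.60 (scpl25) to 0.64 (SCPL49 and scpl20) on the log2 scale, and again none of the 14 members passed the adjusted test. Limma called 1535 of 13648 probe sets (11.2%) and 0 of the 14 members, whose lowest adjusted p was 0.0935 (SCPL49). Without a genotype term the count over all probe sets was 1093, and in that fit leaving out a single array moved it down or up. An unadjusted p under 0.05 was reached by 4 members (28.6%), SCPL49, scpl20, scpl25 and scpl50, against 24.6% of all. The median absolute difference of the 14 was 0.42 (0.21 between the genotypes), against 0.30 over all tested probe sets (0.17 between the genotypes). After quantile normalization 1861 probe sets passed, against 1535. Among them were 2 of the 14 members, SCPL49 and scpl20 (limma adjusted p = 0.0352 and 0.0310). Without single arrays the log2 difference of SCPL49 lay between 0.42 and 0.86.

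The signals did not overlap between the numbers in 8 of the 14 members (57.1%), against 54.4% of all tested probe sets, so the share in the family was close to that of all. Of the 8, 3 were higher (21.4%, against 23.6% of all) and 5 lower (35.7%, against 30.8%) on the arrays numbered 2. After quantile normalization 8 members again did not overlap, 4 higher and 4 lower, against 53.8% of all in either direction. The estimates were above 0 in 7 members and below 0 in 7 (50.0%, against 54.8% of all), with a median of −0.014, against −0.052 over all.

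Higher on both arrays numbered 2 were scpl20, scpl48 and SCPL49. SCPL49, the gene annotated as carboxypeptidase Y, had 383 and 490 on the wild-type arrays against 351 and 663 on the mutant arrays, and the log2 difference was 0.64 (SE 0.24). The step from number 1 to number 2 was 0.35 in wild type, against 0.92 in the mutant, with 1 pair of arrays each and no test. For scpl20 the signals were 107 and 168 on the wild-type arrays against 126 and 193 on the mutant arrays, and the log2 difference was 0.64 (SE 0.24, limma adjusted p = 0.105). Its steps of 0.66 and 0.61 were nearly equal in both genotypes. The log2 difference of scpl48 was 0.37 (SE 0.23), with steps of 0.29 and 0.45.

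Lower on both arrays numbered 2 were scpl25, scpl31, SCPL34, scpl42 and scpl50. For scpl25 the signals were 673 and 386 on the wild-type arrays against 601 and 456 on the mutant arrays, and the log2 difference was −0.60 (SE 0.23, limma adjusted p = 0.106). SCPL34 had 261 and 202 on the wild-type arrays against 284 and 188 on the mutant arrays, and the log2 difference was −0.48 (SE 0.24). In both of these members the arrays parted by number, although neither was called, and overlapped between the genotypes. Their genotype differences were 0.039 and 0.0080. The values of scpl31 were 107 and 91.6 on the wild-type arrays against 112 and 80.5 on the mutant arrays. The log2 difference of scpl42 was −0.47 (SE 0.24), with a step of −0.18 in wild type and of −0.76 in the mutant. The pair of scpl50 was uneven, with 186 and 86.8 on the wild-type arrays against 106 and 102 on the mutant arrays. Its log2 difference of −0.58 (SE 0.28) held a step of −1.10 in wild type and of −0.060 in KO-nudx19, and it was −0.18 without wild type replicate 1.

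Members that parted by genotype did not part by number, as 4 arrays cannot do both. In 8 of the 14 members the difference between the numbers was larger than that between the genotypes (57.1%, against 66.8% of all tested probe sets). SCPL45, with 348 and 316 on the wild-type arrays against 288 and 327 on the mutant arrays, was the only tested member that parted by neither at the deposited scaling (after centring on the median it was lower on both KO-nudx19 arrays). It was also the only one in which the step from number 1 to number 2 had opposite signs in the genotypes, while 13 members kept their sign. Any probe set that parts by number keeps its sign, as 8 of the 14 members did, and 54.4% of all tested probe sets parted by number. How many of all tested probe sets kept their sign was not counted, so it is not known whether the family stands out.

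**Figure D3:**
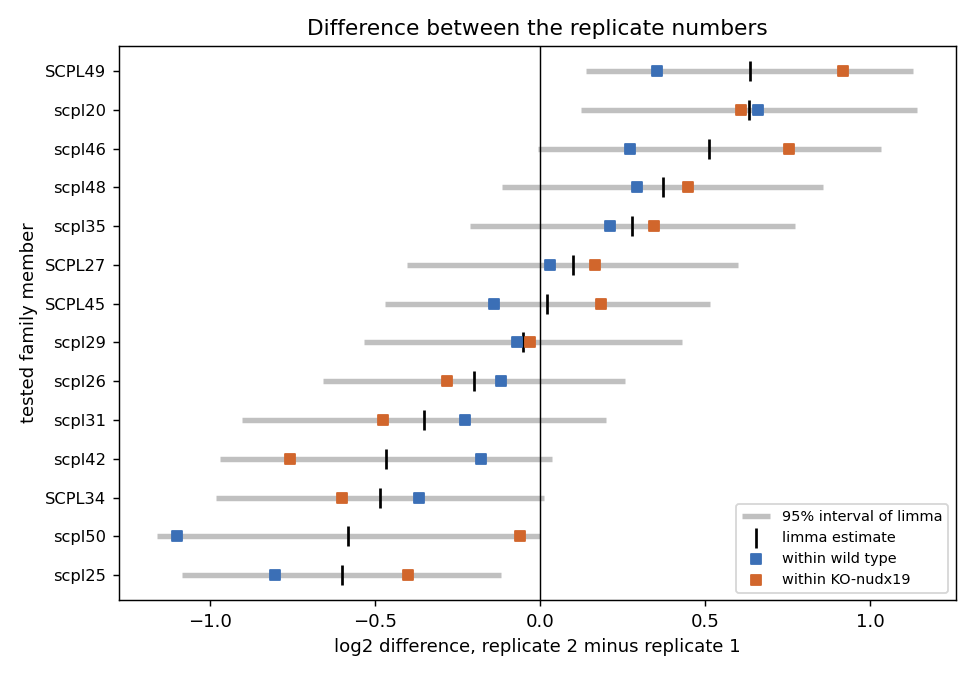
Log2 difference between the arrays numbered 2 and those numbered 1 for the 14 tested members, with limma's estimate (black bar), its 95% interval (grey) and the difference within each genotype (squares). The estimates run from −0.60 for scpl25 to 0.64 for SCPL49, and both squares lie on the same side of 0 in 13 members. The share over all tested probe sets was not counted.

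Some laboratory controls moved with the replicate number as well. The poly(A) controls, bacterial transcripts added to the RNA, had a geometric mean signal of 116 and 98.2 on number 1 (wild type, then KO-nudx19) and of 19.9 and 21.0 on number 2. The actin 3′/5′ signal ratio, a sign of RNA integrity, was 2.30 and 2.92 for number 1 and 4.27 and 5.17 for number 2 with the newer control probe sets, and 22.0 and 12.2 against 20.6 and 20.5 with the older ones. The GAPDH ratio was 1.01 and 0.986 against 1.15 and 1.38 with the newer probe sets, and 1.71 and 1.90 against 1.99 and 2.98 with the older ones. The ubiquitin ratio overlapped between the numbers, with 1.53 and 1.48 against 1.44 and 1.95 for the newer and 3.73 and 4.27 against 3.20 and 4.35 for the older probe sets. The part of these controls in the differences of the members was not tested. Hybridisation controls moved with the genotype, at 620 and 411 on the wild-type arrays against 1054 and 1140 on the mutant arrays, and their part was not tested either.

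Genes around the sinapate ester branch, in which SNG1 and SCPL19 act, showed no called difference. Of 22 listed genes, 4 had a named probe set and 3 were tested. Limma called 0 of them between the genotypes (against 0% of all tested probe sets) and 0 between the numbers (against 11.2%). HCT, an acyltransferase of the shared phenylpropanoid pathway, had 1567 and 1563 on the wild-type arrays against 1692 and 1064 on the mutant arrays. ALDH2C4, which oxidises sinapaldehyde to sinapate, had 851 and 977 against 910 and 973. UGT84A3, a glucosyltransferase that makes glucose esters of hydroxycinnamates, had 154 and 178 against 117 and 248. Their log2 differences between the genotypes were −0.22, 0.046 and 0.041, with a median of 0.041. Between the numbers they were −0.34, 0.15 and 0.64, with a median of 0.15. All 3 overlapped between the genotypes, where 22.3% of all tested probe sets did not. Between the numbers none of the 3 overlapped, and neither did 54.4% of all tested probe sets. In HCT the nearest values of the numbers, 1567 and 1563, were almost equal. UGT84A1, of the same glucosyltransferase group, lay between 1.26 and 16.8 and was not tested.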

How the data were processed

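RNA from leaves was hybridised to 1 array per sample. The deposited values are intensity signals per probe set, made with GCOS per the submitters' processing notes. Not given in the sources used here are its version, the background correction, the summarisation and the scaling target. A floor was set at 8.92, the 20th percentile over the whole table, and log2 values were used from there. Leaving out 64 controls and every probe set with a mean under 38.2 (40th percentile) kept 13648 for limma 3.58.1 (R 4.3.3; eBayes with a trend, Benjamini-Hochberg over all of them, threshold 0.05). The genotype fit had no other term, and the fit of the replicate number had genotype as a term. Log2 differences are on this floored scale. The code was tested on simulated data. Symbols were updated through RefSeq TAIR10.1, which was used only for names and for which genes are neighbours. The members, lists and tests were chosen with earlier results of these data known. All members are accounted for, and those that passed the mean are given with their values. Protein and promoter sequences were not used here, so the planned motif search was not run. Alternatives were other scalings, floors, filters and moderation, a pseudocount, the replicate block and leaving out each array. Figures were drawn with matplotlib 3.10.9.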

Additional observations from a re-analysis of the deposited data

Results flagged for a closer look

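SCPL45 stood out because the step from replicate number 1 to number 2 went in opposite directions in the genotypes, on the log2 scale −0.14 in wild type and 0.18 in KO-nudx19. Each value rests on 1 pair of arrays, and the difference between them was not tested. How often the steps had opposite signs over all tested probe sets was not counted.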

How the results depend on the processing

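No member was called between the genotypes under any alternative run, and leaving out single arrays moved the median difference of the 14 members between −0.24 and −0.076. With the replicate block, limma called 2 probe sets over the whole table, neither a member. With the block, 738 of the 13648 probe sets had an unadjusted p under 0.05, against 89 without it. Of the 14 members 1 did, scpl46. The interval of scpl46 was then −1.06 to −0.021 (block adjusted p = 0.879 in limma, the lowest of a member), and the median half-width of the members' intervals was 0.50 (1.41-fold), against 0.76. Deviations from the genotype means correlated at 0.553, over probe sets, between arrays of one number, but with 2 pairs and no label saying what the number marks, the block was not taken as a pairing. Leaving out single arrays gave 0 to 10 called probe sets between the genotypes, and 0 to 1 members and 521 to 1242 probe sets between the numbers. Between the numbers, the fits that left out an array had no genotype term, since 3 arrays leave no residual degrees of freedom with it, and the lone array was assumed to vary like the others. Quantile normalization called 1861 probe sets between the numbers, against 1535 in the main fit. Of the 14 members it called 2, scpl20 (0.75) and SCPL49 (0.68). Called probe sets numbered 0 without a filter (2705 at an unadjusted p under 0.05) and 1012 with a filter at the 60th percentile. The median of the members between the numbers, close to 0, turned to 0.049 after quantile normalization and 0.048 after median centring. It was 0.023 with the filter at the 60th percentile (110.9), which drops scpl31 and leaves 13 members. Without single arrays it lay between −0.11 and 0.046. Signs turned under median centring for the genotype differences of scpl25 (−0.0021) and SCPL34 (−0.033), and for the number difference of scpl29 (0.012, and 0.010 after quantile normalization). Without single arrays, genotype differences that turned ranged from −0.11 to 0.55 (scpl20), −0.36 to 0.44 (scpl25), −0.30 to 0.17 (scpl31), −0.29 to 0.31 (SCPL34), −0.69 to 0.064 (scpl42), −0.42 to 0.025 (scpl48), −0.30 to 0.62 (SCPL49) and −0.84 to 0.26 (scpl50). Number differences that turned ranged from −0.41 to 0.013 (scpl26), −0.098 to 0.30 (SCPL27), −0.14 to 0.041 (scpl29) and −0.11 to 0.16 (SCPL45). The number of arrays, 2 per genotype, limits the precision.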

Other observations

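Of the 15 dim members, 4 did not overlap between the genotypes once all signals below the floor of 8.92 were set to it. In KO-nudx19, 3 were higher (20%, against 7.58% of all untested probe sets) and 1 was lower (6.67%, against 6.22%). These 4 members were singled out after their values were seen, and none was tested. SCPL32 had 10.7 and 8.31 on the wild-type arrays against 18.9 and 18.1 on the mutant arrays, and scpl41 had 1.74 and 1.95 against 10.8 and 10.8. For scpl30 the signals were 0.811 and 4.60 against 10.0 and 16.6. The lower one was scpl18, with 10.6 and 13.1 against 4.13 and 3.90. All of these values lay under 20, and in each of the 4 at least 1 array was below the floor, so no fold change is given.

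Between the numbers, 4 dim members were higher on both arrays numbered 2 (26.7%, against 20.3% of all untested probe sets), and all were untested. SCPL43 had 22.5 and 35.1 on the wild-type arrays against 19.4 and 28.5 on the mutant arrays, and scpl47 had 14.4 and 27.3 against 8.27 and 28.7. For scpl33 the signals were 1.58 and 23.6 against 9.12 and 30.1, and for scpl21 they were 18.2 and 21.9 against 18.5 and 21.7.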
